A study of Mus musculus with 28 samples.

Results

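Livers of wild-type mice fed an ethanol liquid diet were compared with livers of wild-type mice fed the same kind of diet without ethanol. The members are the 8 arrays of these diets, 4 from the ethanol diet and 4 from the control diet, of 28 arrays in the series, and they were chosen by the genotype and diet in their titles. The series also holds wild-type arrays of ethanol diets with ellagic acid or trans-resveratrol, and CAR-deficient mice on the same diets, where CAR is the constitutive androstane receptor. The wild-type mice were of the C3H/HeN strain, labelled female, and 5 weeks old when they arrived. After 1 week of acclimation on a solid diet, each mouse on the ethanol diet received Lieber's liquid diet with ethanol, and each mouse on the control diet received the isocaloric form with water. By the study's diet formula, the ethanol form held less maltose and dextrin than the control form. Effects of ethanol and of less carbohydrate cannot be told apart here. Feeding was free for 1 week and then rationed at 12 g per day for 4 weeks, and the liver was taken at 10 o'clock on the last day. Each diet group had 4 mice and 4 arrays, so each array is taken as 1 mouse. The question was which liver genes differ in level after weeks on the ethanol diet.

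Ethanol is oxidized in hepatocytes by alcohol dehydrogenase to acetaldehyde, by aldehyde dehydrogenases to acetate, and in part by a cytochrome P450, CYP2E1, in the endoplasmic reticulum around the central vein. Both routes shift the redox state of the cell and produce reactive aldehydes and oxygen species. Liver cells answer foreign and reactive chemicals through nuclear receptors such as CAR and PXR, which switch on cytochrome P450 genes, and through NRF2, which switches on glutathione transferases and antioxidant enzymes. Chronic ethanol is known for fat accumulation in hepatocytes, so genes of lipid synthesis, oxidation and export are also of interest here.

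The values are log2 values made by the authors with Distribution Free Weighting (DFW), a summary that gives each probe a weight from its variation and rescales the spread of the set it belongs to. A difference below is therefore a difference of DFW values on the log2 scale and not a calibrated fold change, and it is ethanol minus control unless stated otherwise. Of 45037 probe sets, 85.3% varied so little over the 16 wild-type arrays (standard deviation 0.01 or less) that they are called compressed. Each of 18193 genes is given by 1 probe set, the brightest on average of those annotated to that gene and no other, and "called" means an adjusted p under 0.05 in limma over all probe sets. Called genes numbered 544 higher (2.99% of genes) and 730 lower (4.01%), and among the 3855 genes that are not compressed, 6.67% were called higher and 11.6% lower. Of the called genes 287 higher and 283 lower ones are compressed. Among called probe sets 588 of 991 higher and 730 of 1510 lower ones are compressed. Ethanol and control values did not overlap for 14.9% of all genes. Called differences of at least 1 were found for 14 genes higher and 19 lower. Counts of probe sets (991 higher, 2.20%, and 1510 lower, 3.35%) depended on single arrays: they were 550 and 938 without ethanol replicate 1, 596 and 1005 without ethanol replicate 4, and 473 and 857, 510 and 821, and 562 and 912 without control replicates 2, 3 and 4. A fit of the 8 arrays alone, without the other wild-type diets that share its estimate of the spread, called 235 higher and 332 lower, and 83 of the 142 called genes named in the text lost the call in it, as given beside each group of genes. Quantile normalization between arrays gave 11768 probe sets higher and 3466 lower, so that 77.2% of calls were higher in place of 39.6%, and 345 probe sets, all compressed, were called in the opposite direction. Pearson's r between the 8 arrays lay between 0.9906 and 0.9993.

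The labelled tissue and sex were set against marker genes. The 13 measured hepatocyte markers averaged 12.93 to 13.17 on ethanol arrays and 12.94 to 12.97 on control arrays, near the top of the scale, whose highest value was 14.72. Xist, the RNA that coats the inactive X chromosome of female cells, lay at 5.98, 6.11 and 6.47 by its 3 probe sets (means of the 16 wild-type arrays), the 3.85, 9.26 and 34.2 percentiles of all probe sets. Genes of the Y chromosome lay at 6.02 and 9.17 for Eif2s3y (the 5.20 and 92.1 percentiles), at 6.17, 6.42 and 7.34 for Kdm5d (12.3, 30.9 and 72.1) and at 6.21, 6.43, 6.86 and 7.40 for Uty (up to 73.5). All these probe sets are compressed, and a level of one probe set cannot be set against that of another. These values alone do not settle the sex. Hsd3b5, a male-specific gene described below, is not compressed and read 12.23 to 12.48 on control arrays, against 7.83 on the lowest ethanol array. That level on control arrays goes against the label of female. The sex is given here as labelled but is in doubt.

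Many cytochrome P450s of the Cyp2b, Cyp2c and Cyp3a families were higher in ethanol livers. These enzymes oxidize drugs, steroids and fatty acids, and many are induced through CAR and PXR. Cyp2b10, the mouse gene most used as a sign of CAR activation, read 10.02, 8.74, 8.60 and 10.51 in ethanol livers, against 5.12, 5.44, 5.54 and 5.59 in control livers (probe set 1425645_s_at). The lowest ethanol array lay about 3 units above the highest control array. The difference was 4.05 (standard error 0.42, adjusted p = 0.00053). Cyp2b9, a close relative that is more active in female liver, read 9.91, 10.12, 9.75 and 9.90 in ethanol livers, against 6.29, 6.69, 8.46 and 6.81 in control livers. All ethanol arrays were above all control arrays, and control replicate 3 was the highest of its group by more than 1 unit. Its difference was 2.85 (standard error 0.57, adjusted p = 0.015). Cyp2b13, also a female-biased relative, read 7.31, 8.44, 7.35 and 8.81 in ethanol livers, against 6.14, 6.06, 6.01 and 6.12 in control livers, a difference of 1.90 (standard error 0.68, adjusted p = 0.13) that did not pass, although the groups did not overlap. The ethanol values of Cyp2b13 fell into a lower pair near 7.3 and a higher pair above 8.4. Of 5 measured Cyp2b and Cyp2a genes, 3 were called higher and 0 lower. Cyp2b9 lost the call in the fit of the 8 arrays alone (adjusted p = 0.0517).

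In the Cyp2c family 7 of 11 measured genes were higher and 1 was lower, with a median difference of 0.833 beside 3.4e-05 for all genes. Cyp2c29, an abundant enzyme of arachidonic acid and drug oxidation, read 13.60, 13.48, 13.61 and 13.66 in ethanol livers, against 12.32, 12.49, 12.49 and 12.61 in control livers. The ethanol arrays spanned less than 0.2 and stood clear of the controls, with a difference of 1.11 (standard error 0.07, adjusted p = 1.7e-05). Cyp2c38, its relative, read 10.38, 10.57, 10.37 and 10.02 in ethanol livers, against 8.69, 8.89, 9.36 and 8.82 in control livers, a difference of 1.39 (standard error 0.14, adjusted p = 0.00048). Cyp2c39 (1.05, adjusted p = 0.0041), Cyp2c54 (0.88, adjusted p = 0.0065), Cyp2c37 (0.83, adjusted p = 0.0066) and Cyp2c50 (0.65, adjusted p = 0.0041) were also higher. Cyp2c23, an epoxygenase of arachidonic acid, went the other way and read 9.05, 8.77, 9.08 and 9.0 in ethanol livers, against 9.64, 10.03, 10.01 and 10.21 in control livers, so that it fell by 1.00 (standard error 0.12, adjusted p = 0.00097). Cyp3a11, the main drug-oxidizing Cyp3a enzyme of mouse liver, read 13.99, 13.93, 13.94 and 13.90 in ethanol livers, against 13.59, 13.59, 13.65 and 13.60 in control livers. Its groups were narrow and apart, with a difference of 0.33 (standard error 0.02, adjusted p = 4.2e-05), a call lost in limma with trend and robust moderation of the variances (adjusted p = 0.27). Cyp3a25 (0.50, adjusted p = 0.00053) and Cyp3a13 (0.45, adjusted p = 0.0056) were higher too. Of 5 Cyp3a genes 4 were called higher, of which Cyp3a44 is compressed and differed by 0.0014. Members of these families are close in sequence and may share signal, and the probe set of Cyp2b10 carries the _s_at suffix of sets that match several transcripts. Cyp2c39 and Cyp3a44 did not keep the call with only the 8 arrays in the fit (adjusted p between 0.0521 and 0.062).

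P450s outside these families mostly did not pass. Of 20 other genes of this kind 1 was higher and 2 were lower, and Cyp2e1, the ethanol-oxidizing P450, read 13.87, 13.88, 13.87 and 13.87 in ethanol livers, against 13.88, 13.87, 13.87 and 13.86 in control livers and was not called (adjusted p = 0.998). Its values are near the top of the scale and hardly varied. Cyp1a2, the enzyme of caffeine oxidation, differed by 0.03, adjusted p = 0.86. Cyp26a1, which degrades retinoic acid, read 9.04, 8.18, 8.84 and 9.03 in ethanol livers, against 7.91, 7.47, 7.22 and 7.89 in control livers and rose by 1.15 (standard error 0.22, adjusted p = 0.012). Cyp2u1, a fatty acid hydroxylase, read 7.34, 7.71, 7.74 and 7.24 in ethanol livers, against 8.69, 8.72, 8.58 and 8.83 in control livers and fell by 1.20 (standard error 0.14, adjusted p = 0.00092), with every ethanol array below every control array. Cyp26a1 missed the threshold when the other wild-type diets were left out of the fit (adjusted p = 0.089).

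Promoter windows of P450 genes with large differences are shown for one core motif, AGGTCA, which nuclear receptors such as CAR and PXR bind in pairs. The windows are the 250 bases before the annotated start in RefSeq on GRCm38.p6, written 5′ to 3′ on the gene's strand, with the motif in capitals. Both strands were searched, and 14.0% of all 32851 windows of this length hold it. Cyp2b9 lies at chr7:26173159-26173408 (+) with the motif starting 138 bases before the start, and Cyp2c29 at chr19:39286835-39287084 (+) with the motif 154 bases before the start.
Cyp2b9: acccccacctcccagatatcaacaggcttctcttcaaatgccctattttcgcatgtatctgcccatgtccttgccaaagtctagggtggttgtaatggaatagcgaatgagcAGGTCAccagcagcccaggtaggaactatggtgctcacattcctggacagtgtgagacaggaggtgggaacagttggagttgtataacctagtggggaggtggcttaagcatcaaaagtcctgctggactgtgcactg
Cyp2c29: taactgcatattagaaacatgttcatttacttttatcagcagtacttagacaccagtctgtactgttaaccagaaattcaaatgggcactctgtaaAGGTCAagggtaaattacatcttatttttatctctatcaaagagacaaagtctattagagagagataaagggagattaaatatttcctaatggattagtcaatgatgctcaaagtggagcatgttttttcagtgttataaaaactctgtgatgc
Of the 15 genes with the largest called increases and no overlap of groups, 13 had a window and 5 of these held the motif (Cyp2b9, Ildr2, Cyp2c29, Cyp2c39 and Etfbkmt). The window of Cyp2b10 did not hold these letters. Of the 15 genes with the largest decreases, 9 had a window and 3 held the motif.

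**Figure D1:**
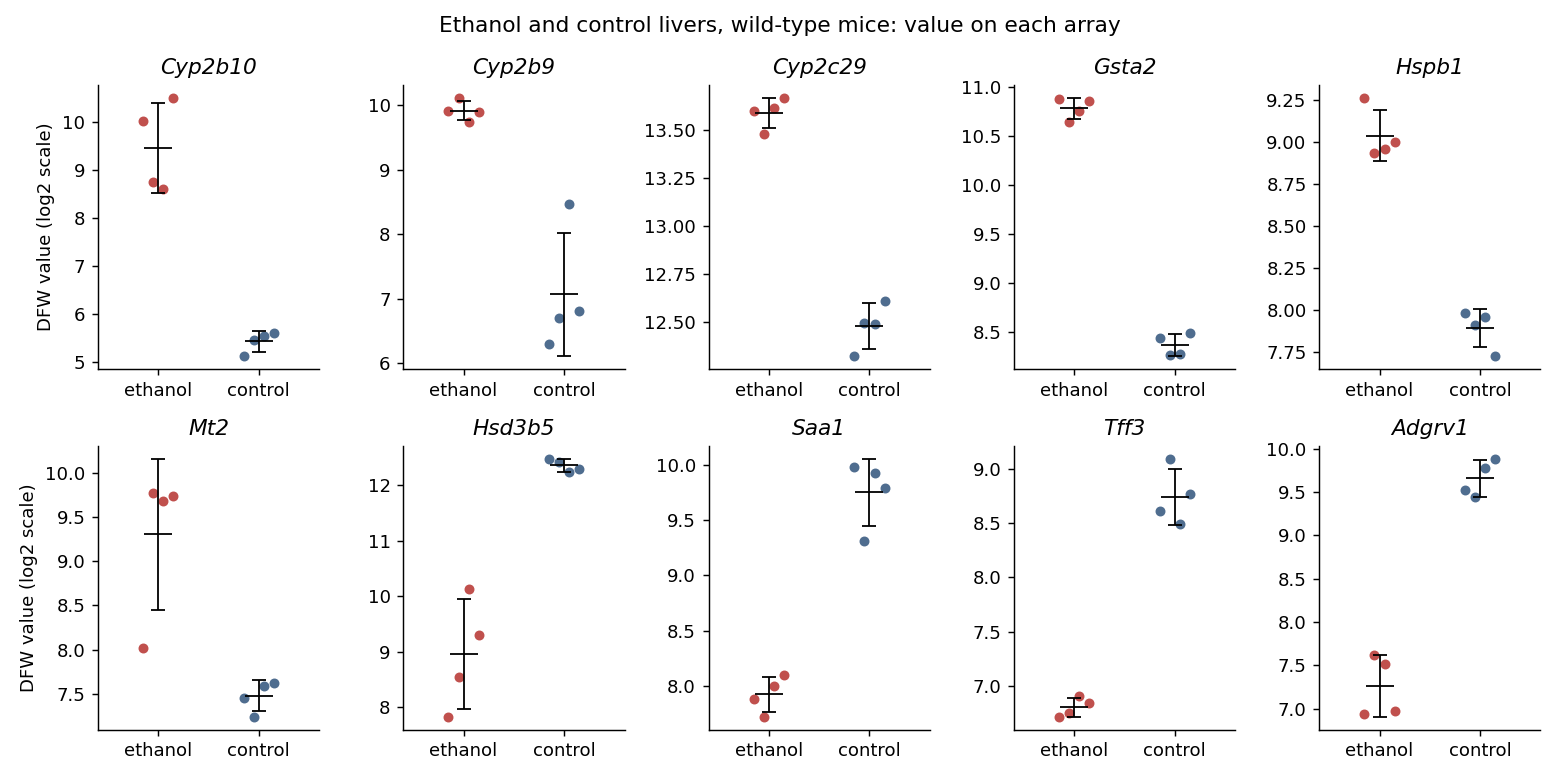
DFW values (log2 scale) of 10 genes on each array, ethanol left and control right (points), with the mean and SD as bars (n = 4 each). Cyp2b10, Cyp2b9, Cyp2c29, Gsta2, Hspb1 and Mt2 were higher and Hsd3b5, Saa1, Tff3 and Adgrv1 lower in ethanol livers, and the groups do not overlap for any of the 10 genes.

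Glutathione transferases, which join glutathione to reactive chemicals, were called higher in 11 of 20 measured genes and lower in 0, and 9 were not called, with a median difference of 0.314. Gsta2, an alpha class enzyme known as a target of NRF2, read 10.88, 10.65, 10.76 and 10.86 in ethanol livers, against 8.44, 8.26, 8.27 and 8.49 in control livers. Both groups were tight and more than 2 units apart, with a difference of 2.42 (standard error 0.11, adjusted p = 1.6e-06). Gsta4, which removes the lipid peroxidation product 4-hydroxynonenal, read 10.82, 10.85, 10.83 and 10.82 in ethanol livers, against 9.82, 9.92, 9.77 and 10.15 in control livers. The ethanol values spanned 0.03, and the difference was 0.92 (standard error 0.07, adjusted p = 7.7e-05). Gstm3 of the mu class read 11.06, 10.10, 10.60 and 10.91 in ethanol livers, against 8.98, 9.52, 9.05 and 9.29 in control livers, a difference of 1.46 (standard error 0.24, adjusted p = 0.0065), with ethanol replicate 3 nearest to the controls. Gstm1, another mu class enzyme, read 12.73, 12.61, 12.61 and 12.88 in ethanol livers, against 11.58, 11.83, 11.76 and 11.79 in control livers and rose by 0.97 (standard error 0.11, adjusted p = 0.00089). The microsomal Mgst3 rose by 0.68, adjusted p = 0.00052, Gsta3 by 0.51, adjusted p = 0.0067 and the omega class Gsto1 by 0.26, adjusted p = 0.0067. Gstt3 (0.94, adjusted p = 0.033), Gstm4 (0.57, adjusted p = 0.042), Gstt2 (0.41, adjusted p = 0.029) and Gstk1 (0.21, adjusted p = 0.04) also passed, but lost the call in 5, 6, 5 and 7 of the 8 fits without 1 array (adjusted p up to 0.073, 0.11, 0.07 and 0.088). Gstm3, Gsta3, Gstt3, Gstm4, Gstt2 and Gstk1 lost the call in the fit of the 8 arrays alone (adjusted p between 0.0508 and 0.11).

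Some other NRF2 targets were also higher. Of 20 measured antioxidant genes outside the transferases 5 were higher and 0 lower, with a median difference of 0.048. Blvrb, a biliverdin reductase, read 10.54, 10.62, 10.41 and 10.50 in ethanol livers, against 9.85, 9.99, 9.98 and 9.98 in control livers and rose by 0.57 (standard error 0.07, adjusted p = 0.0013). Hmox1, the heme oxygenase that makes biliverdin, read 7.83, 7.91, 7.90 and 7.61 in ethanol livers, against 7.27, 7.41, 7.43 and 7.43 in control livers and rose by 0.43 (standard error 0.06, adjusted p = 0.0042). All ethanol arrays exceeded all control arrays for both genes. Nqo1, a quinone reductase and a standard NRF2 target, was called (adjusted p = 0.015) on a compressed probe set with a difference of 0.00048. Gclc, the catalytic subunit of glutathione synthesis, read 11.61, 11.79, 11.93 and 10.85 in ethanol livers, against 11.66, 11.61, 11.65 and 11.71 in control livers and was not called (adjusted p = 0.79), with ethanol replicate 5 about 0.8 below the rest. The transcript of NRF2 itself, Nfe2l2, was lower (-0.50, adjusted p = 0.03), a call lost in 5 of the 8 fits without 1 array (adjusted p up to 0.077). Hmox1 and Nfe2l2 did not keep the call with only the 8 arrays in the fit (adjusted p between 0.063 and 0.11).

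Among 35 measured conjugating and hydrolysing enzymes 8 were higher and 2 lower. Ephx1, the microsomal epoxide hydrolase, read 12.08, 12.13, 12.03 and 11.75 in ethanol livers, against 11.13, 11.16, 11.05 and 11.23 in control livers and rose by 0.85 (standard error 0.14, adjusted p = 0.0065). Ces2a, a carboxylesterase, read 11.73, 11.50, 11.73 and 11.60 in ethanol livers, against 10.77, 11.04, 11.00 and 11.07 in control livers and rose by 0.67 (standard error 0.07, adjusted p = 0.00069). Both genes had ethanol arrays clear of the controls. Ugt2b35, a glucuronosyltransferase, rose by 0.47, adjusted p = 0.012 and the flavin monooxygenase Fmo1 by 0.27, adjusted p = 0.014. The sulfotransferase Sult1c2 fell by 0.70, adjusted p = 0.017, a call lost without control replicate 2 (adjusted p = 0.0505), and Ugt3a1 fell by 0.85, adjusted p = 0.024, a call lost without control replicate 3 or 4 (adjusted p up to 0.067). Of 16 efflux pumps 2 were higher and 1 lower. Abcc3, which exports conjugates to blood, read 10.84, 11.03, 10.75 and 10.73 in ethanol livers, against 10.19, 10.18, 10.52 and 10.29 in control livers and rose by 0.54 (standard error 0.09, adjusted p = 0.0072). Abcg2, an exporter of the canalicular membrane, read 9.90, 9.62, 9.95 and 9.70 in ethanol livers, against 10.21, 10.21, 10.14 and 10.25 in control livers and fell by 0.41 (standard error 0.07, adjusted p = 0.0096). Of 12 uptake carriers 2 were higher and 3 lower. Slc22a7, an organic anion transporter, read 8.29, 7.55, 8.93 and 8.31 in ethanol livers, against 9.46, 9.24, 9.61 and 9.50 in control livers. Its ethanol values ranged over more than 1 unit but stayed below the controls, and it fell by 1.19 (standard error 0.29, adjusted p = 0.034), a call lost in 7 of the 8 fits without 1 array (adjusted p up to 0.085). Sult1c2, Ugt3a1, Abcc3, Abcg2 and Slc22a7 missed the threshold when the other wild-type diets were left out of the fit (adjusted p between 0.064 and 0.11).

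Some heat shock proteins and cochaperones of Hsp90 were called higher in ethanol livers, 7 of 25 and 6 of 13 measured, and most were not called. They fold proteins in the cytosol, and the heat shock factor HSF1 raises many of them when proteins are damaged. Of the 25 cytosolic heat shock genes 7 were higher, 1 was lower and 17 were not called. Hspb1, a small heat shock protein that binds unfolded proteins, read 9.26, 8.93, 8.95 and 9.0 in ethanol livers, against 7.98, 7.91, 7.96 and 7.73 in control livers and rose by 1.14 (standard error 0.19, adjusted p = 0.0065). The groups were about 1 unit apart, with ethanol replicate 1 the highest. Hspb8, also a small heat shock protein, read 9.75, 10.17, 9.70 and 9.66 in ethanol livers, against 8.94, 9.07, 9.07 and 9.06 in control livers and rose by 0.78 (standard error 0.11, adjusted p = 0.0031). Hspa8, the constitutive Hsp70, rose by 0.29, adjusted p = 0.0067 in its brightest probe set, and of its 4 probe sets 3 were called higher and the dimmest, 1431182_at, lower (-0.78, adjusted p = 0.034). Hsph1, a nucleotide exchange factor of Hsp70, read 9.77, 10.49, 9.61 and 9.83 in ethanol livers, against 9.10, 8.82, 9.25 and 9.30 in control livers, with ethanol replicate 3 more than 0.6 above the rest. Its difference of 0.81 (standard error 0.19, adjusted p = 0.032) lost the call in 6 of the 8 fits without 1 array (adjusted p up to 0.084). Dnajb4, an Hsp40 partner, fell by 0.47, adjusted p = 0.011 and Dnajb2 rose by 0.27, adjusted p = 0.014. Hspa1b, the stress-inducible Hsp70, read 11.00, 11.52, 9.95 and 10.10 in ethanol livers, against 10.00, 10.13, 10.46 and 10.31 in control livers and was not called (adjusted p = 0.52). Its ethanol replicates 1 and 3 were above all controls and the other ethanol arrays below most of them. Hspa8, Hsph1, Dnajb4 and Dnajb2 lost the call in the fit of the 8 arrays alone (adjusted p between 0.052 and 0.12).

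Of 13 measured genes of Hsp90 and its cochaperones 6 were higher and 0 lower, with a median difference of 0.183. Stip1, which hands clients from Hsp70 to Hsp90, read 8.44, 8.66, 8.50 and 8.53 in ethanol livers, against 8.06, 8.13, 8.11 and 8.17 in control livers and rose by 0.42 (standard error 0.07, adjusted p = 0.005). Chordc1, a cochaperone, read 9.45, 9.88, 9.27 and 9.39 in ethanol livers, against 8.90, 8.88, 9.0 and 9.09 in control livers and rose by 0.53 (standard error 0.11, adjusted p = 0.017), a call just lost without control replicate 2 (adjusted p = 0.0503). Ahsa1, the activator of the Hsp90 ATPase, rose by 0.36, adjusted p = 0.0094 and Fkbp4, a partner of steroid receptors, by 0.29, adjusted p = 0.014. Hsp90aa1, the inducible Hsp90, rose by 0.54, adjusted p = 0.031, and lost the call in 6 of the 8 fits (adjusted p up to 0.082). Of the 5 probe sets of Hsp90aa1 only 2 were called, and of the 3 of Fkbp4 only 1. Ethanol replicate 3 was the highest ethanol array for Hspb8, Hspa8, Hsph1, Hsp90aa1, Chordc1, Stip1 and Ahsa1. The window of Hspb1, at chr5:135887669-135887918 (+), is shown with the heat shock motif GAANNTTC in capitals, which starts 117 and 97 bases before the start.
Hspb1: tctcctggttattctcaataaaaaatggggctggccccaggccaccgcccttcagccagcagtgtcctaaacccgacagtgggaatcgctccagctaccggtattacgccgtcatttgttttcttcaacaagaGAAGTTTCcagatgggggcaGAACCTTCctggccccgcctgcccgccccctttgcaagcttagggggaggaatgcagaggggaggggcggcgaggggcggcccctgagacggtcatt
One or more such motifs were in 6.69% of all windows, and at least 2 in 0.228%. Of the called heat shock genes 6 had a window and 1 held the motif, and of those not called 16 had a window and 5 held it. Chordc1, Ahsa1 and Hsp90aa1 did not keep the call with only the 8 arrays in the fit (adjusted p between 0.064 and 0.12).

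Some genes of the wider folding and degradation machinery were higher, each of those named here by less than 0.3. Of 14 chaperonin and prefoldin subunits 3 were higher and 0 lower, among them Cct3 (0.28, adjusted p = 0.00039) and Cct5 (0.26, adjusted p = 0.0037), parts of the ring that folds actin and tubulin. Of 17 subunits of the proteasome core 3 were higher, and of 23 subunits of its regulatory particle 3, with 0 lower in either. Psmb5, the subunit with chymotrypsin-like activity, read 10.67, 10.65, 10.62 and 10.63 in ethanol livers, against 10.35, 10.38, 10.41 and 10.46 in control livers and rose by 0.24 (standard error 0.04, adjusted p = 0.0093). Psmc5, an ATPase of the regulatory particle, read 9.64, 9.79, 9.64 and 9.60 in ethanol livers, against 9.32, 9.38, 9.34 and 9.47 in control livers and rose by 0.29 (standard error 0.04, adjusted p = 0.0032). The groups did not overlap for either gene. Psmd13 (0.21, adjusted p = 0.015) and the deubiquitinase Psmd14 (0.20, adjusted p = 0.008) were higher too. In sign, 15 of 17 core and 20 of 23 regulatory subunits were above zero, beside 10224 of 18193 genes. Of these subunits 6 core and 6 regulatory ones are compressed, so that their signs show little. The same holds for the signs of all genes, of which 14338 are compressed. The median differences of the lists were 0.027 and 0.023. Among members that are not compressed they were 0.072 and 0.075, beside -0.038 for all such genes. Psmc5, Psmd13 and Psmd14 missed the threshold when the other wild-type diets were left out of the fit (adjusted p between 0.061 and 0.12).

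In the endoplasmic reticulum, 3 of 26 measured chaperones and disulfide isomerases were higher and 0 lower. By any probe set of a gene, 7 of the 26 were called higher and 1 lower, beside 716 and 997 of all 18193 genes. In sign, 23 of 26 differed in the positive direction, with a median of 0.21, beside 10224 of 18193 genes. Most of all genes are compressed, so that their signs show little. Among genes that are not compressed the median was 0.22 for this list and -0.038 for all genes. Selenos, a membrane selenoprotein of the degradation complex, read 11.20, 11.14, 11.28 and 11.44 in ethanol livers, against 10.85, 10.63, 10.79 and 10.74 in control livers and rose by 0.51 (standard error 0.06, adjusted p = 0.0014). Calr, the calcium-binding chaperone calreticulin, rose by 0.42, adjusted p = 0.04, a call lost in 7 of the 8 fits without 1 array (adjusted p up to 0.096). Hspa5, the main chaperone of the lumen, read 12.22, 12.16, 12.09 and 12.56 in ethanol livers, against 12.05, 11.86, 11.95 and 11.91 in control livers and was not called (adjusted p = 0.14). Of the 3 probe sets of Hspa5, 1 was called higher. Hyou1, its exchange factor, read 9.25, 9.06, 9.61 and 9.84 in ethanol livers, against 8.97, 8.76, 8.98 and 8.96 in control livers and was not called either (adjusted p = 0.064), although the ethanol arrays were above the controls. Os9, a lectin of protein degradation, rose by 0.27, adjusted p = 0.013. Sec61a1, the channel through which proteins enter, read 10.47, 10.26, 10.58 and 10.76 in ethanol livers, against 10.15, 10.08, 10.14 and 10.14 in control livers and rose by 0.39 (standard error 0.08, adjusted p = 0.015), and Copa of the vesicle coat rose by 0.19, adjusted p = 0.017. Of the 6 probe sets of Sec61a1 3 were called higher and the dimmest, 1455987_at, lower (-0.57, adjusted p = 0.00033), and the other probe set of Copa is compressed and was called lower (-0.00056). Of 34 translocon and coat genes 5 were higher and 1 lower. Calr, Os9, Sec61a1 and Copa lost the call in the fit of the 8 arrays alone (adjusted p between 0.07 and 0.13).

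**Figure D2:**
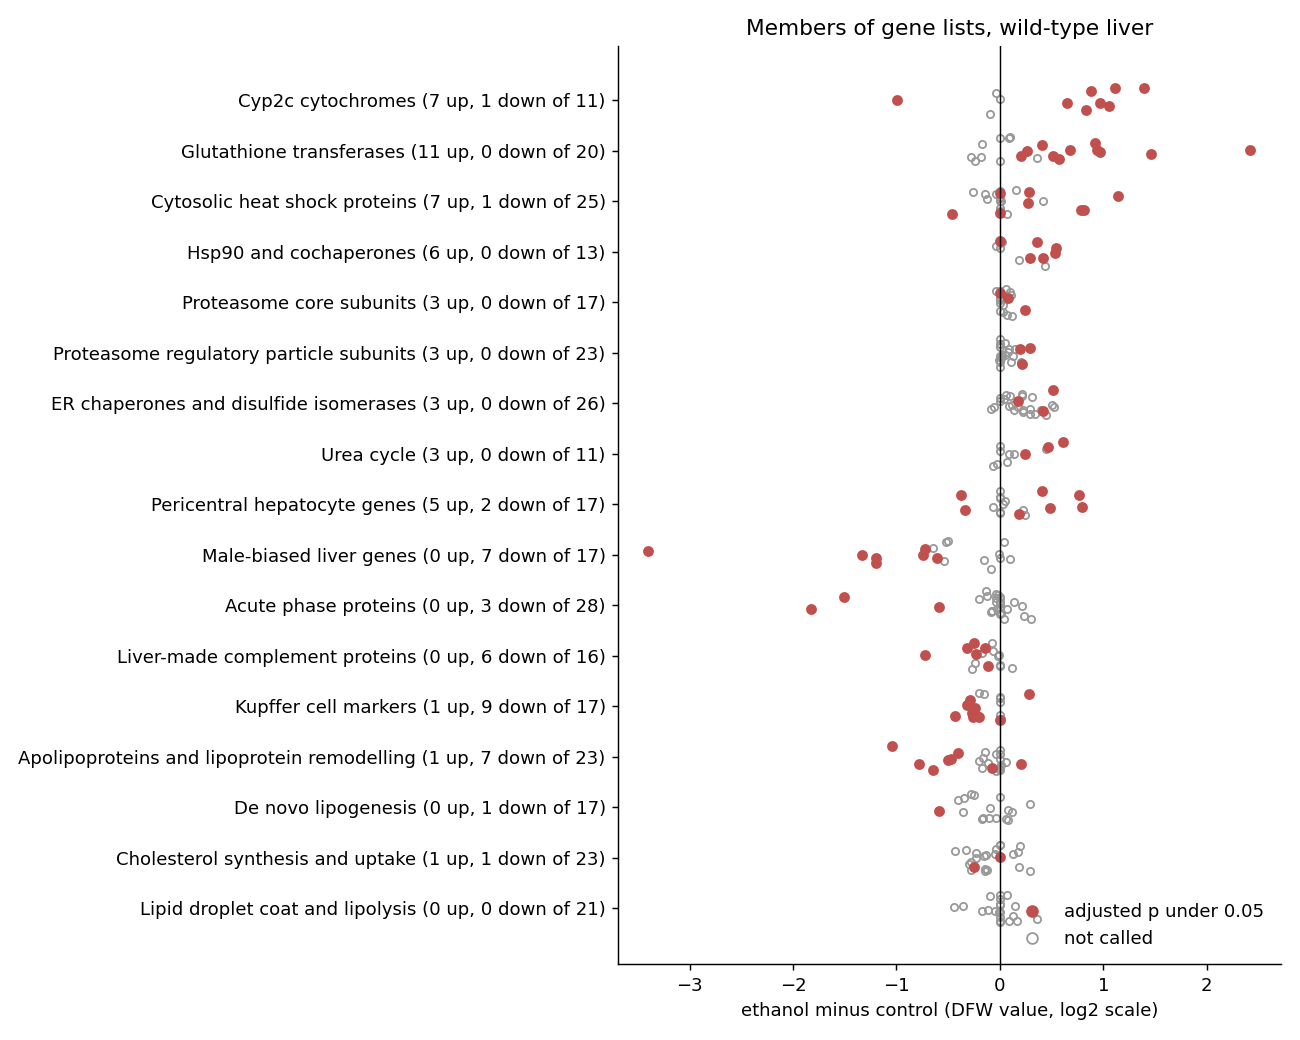
Difference of DFW values (ethanol minus control, log2 scale) for every measured member of 17 gene lists, with called genes filled. The counts beside each name give members called higher (up) and lower (down); glutathione transferases, with 11 of 20 higher, lie mostly right of zero, and Kupffer cell markers, with 9 of 17 lower, lie mostly left of it.

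Most enzymes of ethanol oxidation did not pass. Of 14 measured genes 2 were higher and 0 lower. Adh1, the alcohol dehydrogenase of hepatocytes, read 13.47, 13.37, 13.36 and 13.45 in ethanol livers, against 13.10, 13.26, 13.10 and 13.23 in control livers and rose by 0.24 (standard error 0.04, adjusted p = 0.0098), a call lost with trend and robust moderation (adjusted p = 0.3). The other call, Acss1, is a compressed probe set with a difference of 0.00054. Aldh2, which oxidizes acetaldehyde in mitochondria, read 12.71, 12.72, 12.72 and 12.66 in ethanol livers, against 12.69, 12.74, 12.71 and 12.72 in control livers and was not called (adjusted p = 0.71). Adh1 did not keep the call with only the 8 arrays in the fit (adjusted p = 0.077).

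Of 6 measured metallothionein and zinc carrier genes 2 were higher and 0 lower. Metallothioneins are small proteins that bind zinc. Mt2 read 8.03, 9.77, 9.68 and 9.74 in ethanol livers, against 7.45, 7.24, 7.59 and 7.63 in control livers. Ethanol replicate 1 lay more than 1.6 below the other ethanol arrays but still above the controls, and the difference was 1.82 (standard error 0.45, adjusted p = 0.035). The call was lost in 7 of the 8 fits without 1 array (adjusted p up to 0.083). Mt1 was also lowest among ethanol arrays on replicate 1, read 9.60, 11.53, 11.02 and 10.53 in ethanol livers, against 9.31, 9.28, 9.41 and 9.25 in control livers, and missed the threshold (adjusted p = 0.0529). Slc39a4, a zinc importer, read 9.0, 9.12, 9.16 and 9.17 in ethanol livers, against 8.43, 8.42, 8.48 and 8.42 in control livers and rose by 0.68 (standard error 0.07, adjusted p = 0.00033). The window of Mt2, at chr8:94172368-94172617 (+), is shown with the letters TGCNCNC in capitals, found on either strand. This pattern is looser than the metal response motif that the zinc sensor MTF1 binds, so a match need not be such a motif.
Mt2: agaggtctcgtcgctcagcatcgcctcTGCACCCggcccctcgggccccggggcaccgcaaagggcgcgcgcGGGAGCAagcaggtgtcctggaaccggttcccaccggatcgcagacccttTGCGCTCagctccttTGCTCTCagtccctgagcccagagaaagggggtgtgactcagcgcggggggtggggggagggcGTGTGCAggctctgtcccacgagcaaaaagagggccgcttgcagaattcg
The window holds 5 matches to this loose pattern, and 0.344% of all windows hold as many, while 44.4% hold at least 1. Mt2 missed the threshold when the other wild-type diets were left out of the fit (adjusted p = 0.095).

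Of 18 glucocorticoid-responsive genes 3 were higher and 0 lower (Mt2, Zbtb16 and Angptl4). In sign, 16 differed in the positive direction, with a median of 0.472, beside 10224 of 18193 genes, most of them compressed. Among genes that are not compressed the median was 0.51 for this list and -0.038 for all genes. Zbtb16, a transcriptional repressor raised by glucocorticoids in many tissues, read 8.33, 7.83, 7.82 and 8.45 in ethanol livers, against 6.77, 6.80, 6.55 and 7.07 in control livers and rose by 1.31 (standard error 0.25, adjusted p = 0.013). Angptl4, an inhibitor of lipoprotein lipase, rose by 0.56, adjusted p = 0.018, a call lost without control replicate 2 (adjusted p = 0.0514). Fkbp5, the feedback regulator of the glucocorticoid receptor, read 8.26, 8.83, 8.40 and 8.52 in ethanol livers, against 7.82, 7.97, 8.03 and 8.47 in control livers and was not called (adjusted p = 0.14), and control replicate 4 lay among the ethanol arrays. Of the 3 probe sets of Fkbp5, 1 was called higher. Cebpb, a transcription factor of hepatocytes that many signals raise, read 10.83, 11.05, 10.65 and 11.05 in ethanol livers, against 10.37, 10.15, 10.36 and 10.11 in control livers and rose by 0.65 (standard error 0.12, adjusted p = 0.0095). Angptl4 and Cebpb lost the call in the fit of the 8 arrays alone (adjusted p between 0.0501 and 0.061).

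Some genes of nitrogen disposal were called higher. Of 11 measured urea cycle genes 3 were higher and 0 lower. Asl, argininosuccinate lyase, read 11.12, 11.12, 10.90 and 11.42 in ethanol livers, against 10.43, 10.62, 10.51 and 10.57 in control livers and rose by 0.61 (standard error 0.11, adjusted p = 0.008). Arg1, arginase, rose by 0.47, adjusted p = 0.0454 and lost the call in 7 of the 8 fits (adjusted p up to 0.12). Nags, which makes the activator of the first step, rose by 0.24, adjusted p = 0.019. Cps1, the enzyme of the first step, read 13.34, 13.30, 13.34 and 13.56 in ethanol livers, against 13.34, 13.28, 13.26 and 13.33 in control livers and was not called (adjusted p = 0.33). Of 28 genes of amino acid breakdown 4 were higher and 0 lower, among them Oat, ornithine aminotransferase of pericentral hepatocytes, which read 12.32, 12.24, 12.01 and 12.05 in ethanol livers, against 11.43, 11.34, 11.27 and 11.39 in control livers and rose by 0.80 (standard error 0.12, adjusted p = 0.0042). Hgd of tyrosine breakdown rose by 0.30, adjusted p = 0.012 and Agxt of glyoxylate removal by 0.19, adjusted p = 0.0051. The other, dimmer probe set of Hgd, 1458049_at, was called lower (-0.40, adjusted p = 0.0074). With trend and robust moderation Arg1, Hgd and Agxt missed the threshold (adjusted p = 0.067, 0.06 and 0.056). Asl, Arg1, Nags and Hgd did not keep the call with only the 8 arrays in the fit (adjusted p between 0.062 and 0.17).

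The pericentral list, of genes expressed around the central vein, had 5 of 17 measured members higher and 2 lower. Besides Oat these were Rhbg, an ammonium channel, which read 7.89, 7.93, 7.94 and 8.09 in ethanol livers, against 7.00, 7.20, 7.47 and 7.13 in control livers and rose by 0.77 (standard error 0.14, adjusted p = 0.0087), and the carriers Slc13a3 (0.48, adjusted p = 0.0063) and Slc1a2 (0.41, adjusted p = 0.013). Of the 4 probe sets of Slc13a3 only 1 was called, and of the 5 of Slc1a2 only 1. Lgr5, a receptor of Wnt signalling at the central vein, fell by 0.38, adjusted p = 0.024, a call lost in 5 of the 8 fits (adjusted p up to 0.066). Cyp27a1 of bile acid synthesis (0.19, adjusted p = 0.037) and Gulo of vitamin C synthesis (-0.34, adjusted p = 0.031) completed the called genes, and these calls were lost in 5 and 6 of the 8 fits (adjusted p up to 0.094 and 0.075), that of Cyp27a1 also with trend and robust moderation (adjusted p = 0.057). Glul, glutamine synthetase of the innermost pericentral cells, read 11.31, 11.60, 11.40 and 11.37 in ethanol livers, against 11.45, 11.57, 11.43 and 11.52 in control livers and was not called (adjusted p = 0.46). Of 14 periportal genes 1 was higher and 1 lower. Slc1a2, Lgr5, Cyp27a1 and Gulo missed the threshold when the other wild-type diets were left out of the fit (adjusted p between 0.073 and 0.13).

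Of 17 measured genes that are more active in male than in female mouse liver, 7 were called lower in ethanol livers and 0 higher, with a median difference of -0.543. In male mice they depend on the pulsed release of growth hormone. The mice were labelled female, and the high control values of Hsd3b5 below go against that label. Hsd3b5, a male-specific steroid reductase, read 7.83, 8.55, 10.13 and 9.31 in ethanol livers, against 12.48, 12.41, 12.23 and 12.29 in control livers. The control arrays were close together, the ethanol arrays ranged over more than 2 units, and all lay below the controls, so that Hsd3b5 fell by 3.40 (standard error 0.62, adjusted p = 0.01). Cyp7b1, an oxysterol hydroxylase, read 10.51, 10.69, 10.85 and 11.34 in ethanol livers, against 12.34, 12.11, 11.84 and 11.90 in control livers and fell by 1.20 (standard error 0.20, adjusted p = 0.0069). Serpina12, a secreted serpin known as vaspin, read 9.92, 9.66, 10.37 and 10.34 in ethanol livers, against 11.42, 11.40, 11.29 and 11.49 in control livers and fell by 1.33 (standard error 0.19, adjusted p = 0.0029). Slco1a1, an uptake carrier for bile acids and steroid conjugates, read 11.12, 10.78, 11.38 and 11.07 in ethanol livers, against 11.99, 11.86, 11.74 and 11.72 in control livers. It fell by 0.74 (standard error 0.16, adjusted p = 0.02), a call lost without control replicate 2 (adjusted p = 0.053). Obp2a, an odorant-binding protein, fell by 0.60, adjusted p = 0.0029, and C6, a complement component, by 0.72, adjusted p = 0.02, a call lost without ethanol replicate 1 or control replicate 4 (adjusted p up to 0.056). Elovl3, a fatty acid elongase with male bias, read 11.07, 9.62, 11.40 and 10.68 in ethanol livers, against 11.58, 11.38, 10.99 and 11.42 in control livers and was not called (adjusted p = 0.44), with ethanol replicates 1 and 4 among the controls. The only called members among 16 female-biased genes were Cyp2b9 and the compressed Cyp3a44, both higher. Cyp7b1, Slco1a1, Obp2a and C6 lost the call in the fit of the 8 arrays alone (adjusted p between 0.056 and 0.075).

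Growth hormone signalling itself changed at few genes. Ghr, the growth hormone receptor, read 12.44, 12.38, 12.37 and 12.48 in ethanol livers, against 12.70, 12.71, 12.60 and 12.63 in control livers and fell by 0.25 (standard error 0.04, adjusted p = 0.005), a call lost with trend and robust moderation (adjusted p = 0.069). Igfbp3, a carrier of insulin-like growth factors, read 7.02, 7.08, 7.01 and 7.18 in ethanol livers, against 7.29, 7.51, 7.72 and 7.75 in control livers and fell by 0.50 (standard error 0.10, adjusted p = 0.014). Igf1, the factor that growth hormone raises in liver, differed by 0.01, adjusted p = 0.85. Socs2, a direct target of the growth hormone pathway, read 10.76, 9.56, 11.01 and 8.60 in ethanol livers, against 10.46, 9.40, 8.88 and 9.48 in control livers and was not called (adjusted p = 0.7). Ethanol replicates 1 and 4 and control replicate 1 were the 3 highest arrays. Cish, another target, was highest on the same 3 arrays and read 9.27, 7.07, 9.67 and 6.74 in ethanol livers, against 9.63, 6.72, 6.74 and 6.68 in control livers. Of 21 genes of this axis 0 were higher and 3 lower, the third being Igf1r, a compressed probe set. Igfbp3 did not keep the call with only the 8 arrays in the fit (adjusted p = 0.086).

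In bile acid synthesis 2 of 19 genes were higher and 3 lower. Cyp39a1, which hydroxylates 24-hydroxycholesterol, read 9.48, 9.52, 9.49 and 9.82 in ethanol livers, against 8.42, 8.50, 8.68 and 8.63 in control livers and rose by 1.02 (standard error 0.17, adjusted p = 0.0071). Cyp7a1, the rate-limiting enzyme, read 8.62, 7.69, 8.10 and 10.23 in ethanol livers, against 9.03, 10.87, 10.81 and 9.38 in control livers and was not called (adjusted p = 0.2). Ethanol replicate 5 lay between the control arrays, and both groups ranged widely. Amacr, a racemase of side-chain shortening, read 11.05, 11.06, 11.09 and 11.09 in ethanol livers, against 11.38, 11.36, 11.36 and 11.40 in control livers and fell by 0.30 (standard error 0.02, adjusted p = 7.7e-05), with a gap between narrow groups. Nr0b2, the repressor SHP, read 9.48, 10.01, 8.31 and 10.22 in ethanol livers, against 8.38, 8.03, 8.46 and 8.78 in control livers and was not called (adjusted p = 0.12).

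Saa1 and Saa2, of 4 measured serum amyloid A genes, were lower in ethanol livers, as were 6 of 16 complement genes. Of 28 acute phase genes 0 were higher and 3 lower, and the median difference was -0.0089. Saa1, an acute phase protein of inflammation, read 7.88, 7.72, 7.99 and 8.09 in ethanol livers, against 9.98, 9.31, 9.93 and 9.79 in control livers and fell by 1.83 (standard error 0.18, adjusted p = 0.00039). Saa2, its neighbour on chromosome 7, read 6.96, 6.83, 6.97 and 7.18 in ethanol livers, against 8.65, 8.17, 8.64 and 8.52 in control livers and fell by 1.51 (standard error 0.14, adjusted p = 0.0003). In both genes control replicate 2 was the lowest control array and the groups stood more than 0.9 apart. Their probe sets carry the _s_at and _x_at suffixes of sets that can match several transcripts, so the pair may share signal. Apcs, serum amyloid P, read 12.38, 12.08, 12.30 and 12.08 in ethanol livers, against 12.82, 12.85, 12.73 and 12.79 in control livers and fell by 0.59 (standard error 0.09, adjusted p = 0.0042). The windows of Saa1, at chr7:46742981-46743230 (-), and Saa2, at chr7:46751583-46751832 (+), are shown because they lie back to back and changed alike, with the letters TGACCT, the AGGTCA motif on the opposite strand, in capitals.
Saa1: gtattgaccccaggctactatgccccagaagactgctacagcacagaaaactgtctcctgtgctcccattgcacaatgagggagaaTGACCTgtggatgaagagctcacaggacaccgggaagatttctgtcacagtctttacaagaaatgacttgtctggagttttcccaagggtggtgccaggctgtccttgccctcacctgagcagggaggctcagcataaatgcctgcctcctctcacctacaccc
Saa2: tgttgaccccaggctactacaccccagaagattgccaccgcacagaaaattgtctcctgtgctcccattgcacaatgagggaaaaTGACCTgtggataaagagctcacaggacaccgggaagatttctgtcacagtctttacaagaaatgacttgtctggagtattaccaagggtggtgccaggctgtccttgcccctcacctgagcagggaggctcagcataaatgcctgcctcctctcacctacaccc
Aligned over 251 columns, 238 were identical (94.8%) and 2 were gaps, and the motif starts 164 and 165 bases before the starts.

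Of 16 complement proteins made in the liver 6 were lower, 0 higher and 10 not called, with a median difference of -0.128. The protease C1ra read 10.52, 10.55, 10.60 and 10.51 in ethanol livers, against 10.70, 10.71, 10.67 and 10.68 in control livers and fell by 0.14 (standard error 0.02, adjusted p = 0.0055), and properdin, Cfp, read 7.65, 7.65, 7.74 and 7.61 in ethanol livers, against 7.78, 7.88, 7.92 and 8.01 in control livers and fell by 0.23 (standard error 0.05, adjusted p = 0.017). Both decreases were small beside narrow groups. C8a fell by 0.31, adjusted p = 0.021, C4bp by 0.25, adjusted p = 0.021 and Hc, complement component C5, by 0.11, adjusted p = 0.02. The calls of C8a and C4bp were each lost in 2 of the 8 fits without 1 array (adjusted p up to 0.058 and 0.061), and that of Hc without ethanol replicate 1 (adjusted p = 0.0542) and with trend and robust moderation (adjusted p = 0.21). Cfp, C8a, C4bp and Hc missed the threshold when the other wild-type diets were left out of the fit (adjusted p between 0.066 and 0.14).

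Several lipoprotein genes were lower in ethanol livers: of 23 apolipoprotein and lipoprotein genes 7 were lower and 1 higher. Pltp, the phospholipid transfer protein of plasma, read 8.86, 8.53, 8.88 and 8.48 in ethanol livers, against 9.44, 9.82, 9.85 and 9.80 in control livers and fell by 1.04 (standard error 0.13, adjusted p = 0.0017). Apoa4 of triglyceride-rich particles read 11.33, 11.70, 11.75 and 12.07 in ethanol livers, against 12.31, 12.38, 12.62 and 12.67 in control livers and fell by 0.78 (standard error 0.13, adjusted p = 0.0062). Sort1, a sorting receptor in lipoprotein secretion, read 7.87, 7.94, 8.16 and 8.01 in ethanol livers, against 8.73, 8.66, 8.68 and 8.50 in control livers and fell by 0.65 (standard error 0.09, adjusted p = 0.0032). For each of these 3 genes the highest ethanol array was below the lowest control array. Lpl (0.47, adjusted p = 0.0098) and Apoc2 (0.41, adjusted p = 0.01), lipoprotein lipase and its cofactor, were lower too. Fabp5, a fatty acid binding protein of epithelia and macrophages, read 9.72, 9.17, 10.52 and 10.74 in ethanol livers, against 11.86, 11.88, 11.53 and 11.66 in control livers and fell by 1.70 (standard error 0.32, adjusted p = 0.011). Lpl, Pltp, Fabp5 and properdin are also made by macrophages, and 9 of 17 Kupffer cell markers were lower on the same arrays (mean value 8.46 to 8.56 on ethanol arrays and 8.59 to 8.69 on control arrays). The part of those cells in these differences was not tested. Apoa4, Lpl, Apoc2 and Fabp5 lost the call in the fit of the 8 arrays alone (adjusted p between 0.074 and 0.084).

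Of 17 genes of de novo lipogenesis 0 were higher and 1 lower, a share close to that of all genes. Fasn, the fatty acid synthase, read 10.58, 9.91, 9.93 and 11.16 in ethanol livers, against 10.48, 11.36, 10.36 and 10.83 in control livers and was not called (adjusted p = 0.56), and both groups ranged over about 1 unit. Acaca, acetyl-CoA carboxylase, read 9.10, 9.13, 9.07 and 9.39 in ethanol livers, against 9.24, 9.61, 9.53 and 9.67 in control livers and missed the threshold (adjusted p = 0.063), with ethanol replicate 5 among the controls. Elovl6 (-0.41, adjusted p = 0.29), Fads2 (-0.27, adjusted p = 0.062) and Scd1 (-0.25, adjusted p = 0.12), which lengthen and desaturate fatty acids, did not pass. Of the 3 probe sets of Fads2, 1 was called lower. Of 11 alternatives to the main fit, Acaca and Fads2 gained the call in 5, Scd1 in 4, and Fasn and Elovl6 in 2. These alternatives include a test by rank products at 2 thresholds, which likely calls too many genes for the reason given below. Gclc (adjusted p = 0.79 in the main fit) and Socs2 (adjusted p = 0.7) also gained the call in 2, so that 2 gains show little. Of 23 genes of cholesterol synthesis and uptake 1 was higher and 1 lower. Hmgcs1, the first committed synthase, read 11.11, 10.21, 10.53 and 11.32 in ethanol livers, against 11.19, 11.45, 10.98 and 10.86 in control livers and was not called (adjusted p = 0.59). Ethanol replicates 3 and 4 were low and replicates 1 and 5 were within the control range, and the same arrays were low for Sqle (9.12, 8.13, 8.35 and 9.84 on ethanol arrays 1, 3, 4 and 5) and Msmo1 (10.53, 9.61, 9.67 and 10.90 on the same arrays). Neither Sqle (-0.30, adjusted p = 0.68) nor Msmo1 (-0.28, adjusted p = 0.68) passed. Hmgcs1, Sqle and Msmo1 each gained the call in 2 of the 11 alternatives, as Gclc and Socs2 did.

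Of 21 genes of lipid droplet coats and lipolysis 0 were called in limma and 4 had an unadjusted p under 0.05, beside 4526 of all 18193 genes. Plin2, which coats droplets, read 12.38, 12.54, 12.75 and 11.97 in ethanol livers, against 12.22, 12.11, 12.28 and 12.35 in control livers (adjusted p = 0.52). In triglyceride synthesis 2 of 18 genes were higher and 1 lower. Lpin2, a phosphatidate phosphatase, read 11.14, 11.57, 11.04 and 11.10 in ethanol livers, against 10.22, 10.38, 10.60 and 10.70 in control livers and rose by 0.74 (standard error 0.14, adjusted p = 0.011), and Gpat3, which starts glycerolipid synthesis, rose by 0.42, adjusted p = 0.0071. In fatty acid oxidation and ketogenesis 1 of 38 genes was higher and 5 were lower, among them the fatty acid transporter Slc27a2 (lower by 0.17, adjusted p = 0.012, but adjusted p = 0.42 with trend and robust moderation). Of 23 targets of PPAR alpha 2 were higher and 1 lower: Cyp4a31, a fatty acid hydroxylase, rose by 0.93, adjusted p = 0.011, and Vnn1, a pantetheinase, fell by 1.36, adjusted p = 0.026, a call lost in 5 of the 8 fits (adjusted p up to 0.073). Pdk4, the kinase that shuts pyruvate dehydrogenase, read 8.62, 8.14, 7.35 and 7.22 in ethanol livers, against 6.80, 6.79, 6.91 and 6.77 in control livers and was not called (adjusted p = 0.072), although all ethanol arrays were above the controls. Onecut1, a hepatocyte transcription factor, read 9.23, 8.10, 9.62 and 8.40 in ethanol livers, against 10.31, 7.23, 7.16 and 7.09 in control livers, and Ppp1r3b, a glycogen-targeting subunit of protein phosphatase, read 9.49, 10.13, 8.70 and 10.12 in ethanol livers, against 8.60, 9.59, 9.36 and 9.09 in control livers. Neither was called (adjusted p = 0.56 and 0.51), and the 3 arrays highest for Onecut1 were those highest for Socs2 and Cish. Lpin2, Gpat3, Slc27a2, Cyp4a31 and Vnn1 did not keep the call with only the 8 arrays in the fit (adjusted p between 0.0523 and 0.13).

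Of 17 markers of Kupffer cells, the macrophages of the liver sinusoids, 9 were called lower in ethanol livers and 1 higher, with a median difference of -0.199. The mean value over the 17 markers was 8.46 to 8.56 on ethanol arrays and 8.59 to 8.69 on control arrays. Adgre1, the macrophage receptor F4/80, read 7.92, 7.64, 7.64 and 7.79 in ethanol livers, against 8.14, 8.09, 8.21 and 8.31 in control livers and fell by 0.44 (standard error 0.08, adjusted p = 0.01). C1qa, a subunit of complement C1q made by macrophages, read 9.36, 9.19, 9.22 and 9.16 in ethanol livers, against 9.42, 9.49, 9.57 and 9.62 in control livers and fell by 0.29 (standard error 0.05, adjusted p = 0.01), and C1qb (0.27, adjusted p = 0.013) and C1qc (0.20, adjusted p = 0.02) were lower with it. Cd74, the invariant chain of antigen presentation, read 7.93, 7.90, 7.94 and 7.91 in ethanol livers, against 8.09, 8.21, 8.41 and 8.27 in control livers and fell by 0.32 (standard error 0.06, adjusted p = 0.0079). Vsig4, a complement receptor of resident Kupffer cells, fell by 0.26, adjusted p = 0.015, and Clec4f, a lectin specific to them, by 0.24, adjusted p = 0.042. Fcna, a ficolin, went the other way and read 10.00, 9.90, 9.82 and 9.86 in ethanol livers, against 9.50, 9.69, 9.62 and 9.64 in control livers, a rise of 0.28 (standard error 0.05, adjusted p = 0.008). Timd4 is compressed, differed by -0.00031, and did not keep its sign after quantile normalization. The calls of Clec4f and Cd5l (0.22, adjusted p = 0.0466) were lost in 7 of the 8 fits without 1 array (adjusted p up to 0.1 and 0.11), and that of C1qc without control replicate 3 or 4 (adjusted p up to 0.057). In bulk liver, fewer cells of a type and less RNA per cell cannot be told apart. Adgre1, C1qa, C1qb, C1qc, Cd74, Vsig4, Clec4f, Fcna, Timd4 and Cd5l missed the threshold when the other wild-type diets were left out of the fit (adjusted p between 0.063 and 0.17).

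**Figure D3:**
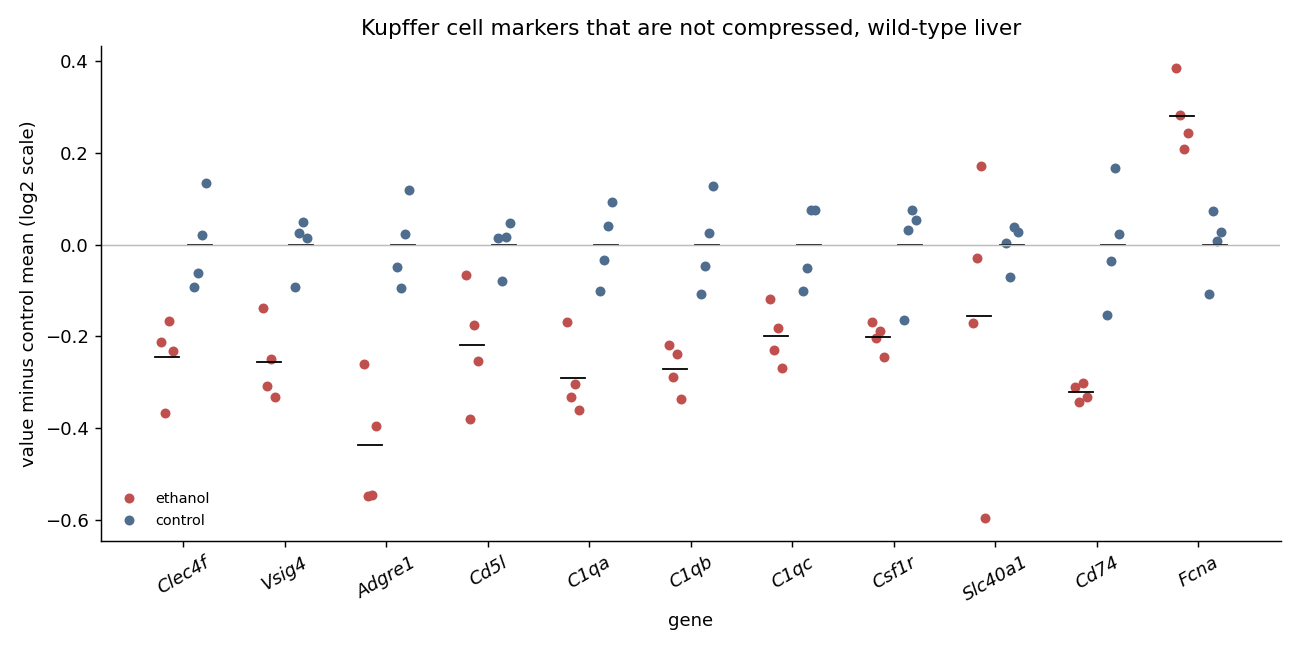
DFW values (log2 scale) of the 11 Kupffer cell markers that are not compressed, each minus its mean on the control arrays, with ethanol arrays left and control arrays right of each gene (points) and the group means (lines, n = 4 each). Of the markers, 9 of 11 lie below zero on all ethanol arrays, Fcna lies above it, and Slc40a1 spreads to both sides.

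Other cell types of the liver showed fewer calls, but more of their markers are compressed than of the Kupffer cell markers (6 of 17). Of 17 markers of sinusoidal endothelium, 12 compressed, 1 was higher and 1 lower. Their mean value was 8.41 to 8.42 on ethanol arrays and 8.37 to 8.45 on control arrays. Of 21 stellate cell and fibrosis genes, 12 compressed, 0 were called in limma. An unadjusted p under 0.05 was found for 5 of them, beside 4526 of all 18193 genes. Of 23 markers of neutrophils, monocytes and lymphocytes, 20 compressed, 0 were higher and 2 lower. Of 10 cholangiocyte markers, 8 compressed, 2 were lower, and the mean value of the 10 was 6.60 to 6.63 on ethanol arrays and 6.79 to 6.86 on control arrays. The median difference of this list was 1.4e-05, so the gap in its mean value rests mostly on Tff3. The marker of this list with a large difference was Tff3, a secreted trefoil peptide, which read 6.72, 6.75, 6.91 and 6.84 in ethanol livers, against 8.61, 9.10, 8.49 and 8.77 in control livers. Every ethanol array was more than 1.5 below every control array, and Tff3 fell by 1.94 (standard error 0.12, adjusted p = 1.7e-05).

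The 15 genes of largest difference in each direction, among called genes whose groups do not overlap, also held genes outside these lists. Adgrv1, a very large adhesion receptor best known from hearing, read 6.94, 7.62, 7.51 and 6.97 in ethanol livers, against 9.52, 9.44, 9.78 and 9.89 in control livers and fell by 2.40 (standard error 0.21, adjusted p = 0.00019). Tsc22d1, a transcription regulator, read 9.60, 9.22, 9.45 and 10.09 in ethanol livers, against 10.80, 11.09, 10.89 and 11.23 in control livers and fell by 1.41 (standard error 0.18, adjusted p = 0.0015). Sucnr1, the succinate receptor, read 8.09, 7.24, 7.80 and 7.68 in ethanol livers, against 9.08, 9.24, 8.83 and 9.0 in control livers and fell by 1.33 (standard error 0.21, adjusted p = 0.0057). Dct, an enzyme of melanin synthesis in pigment cells, fell by 1.32, adjusted p = 0.0044, Nat8, an N-acetyltransferase of the endoplasmic reticulum, by 1.13, adjusted p = 0.008, and Wwox, an oxidoreductase with WW domains, by 1.10, adjusted p = 0.0038. Among the increases, Ildr2, a membrane protein linked to lipid handling in mouse liver, read 8.62, 8.76, 8.36 and 8.74 in ethanol livers, against 7.63, 7.29, 7.25 and 7.50 in control livers and rose by 1.20 (standard error 0.15, adjusted p = 0.0015). Akr1c19, an aldo-keto reductase, read 10.52, 10.66, 10.59 and 9.96 in ethanol livers, against 9.27, 9.49, 9.45 and 9.58 in control livers and rose by 0.98 (standard error 0.15, adjusted p = 0.0039). Etfbkmt, a methyltransferase of mitochondrial electron transfer flavoprotein, rose by 1.05, adjusted p = 0.036, a call lost in 5 of the 8 fits (adjusted p up to 0.086). Wwox, Akr1c19 and Etfbkmt lost the call in the fit of the 8 arrays alone (adjusted p between 0.056 and 0.094).

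Probe sets of the same gene did not always move alike. Of 741 called genes with more than 1 probe set, 118 had all probe sets called the same way and 9 had 1 called the other way, and 426 genes were called only by a probe set other than the brightest. Called genes named above with probe sets that were not called include C1qb (1 of 3 called), Psmd13 (2 of 4) and Adgrv1 (1 of 2). Car3, a carbonic anhydrase abundant in male mouse liver, has 4. Probe set 1453588_at read 5.66, 6.57, 5.68 and 5.86 in ethanol livers, against 7.58, 10.37, 9.78 and 9.67 in control livers, and fell by 3.41 (standard error 0.51, adjusted p = 0.0042). Probe set 1430584_s_at fell by 3.24 (standard error 0.50, adjusted p = 0.0044). The brighter 1460256_at read 12.91, 12.49, 12.90 and 12.72 in ethanol livers, against 13.29, 13.38, 13.20 and 13.02 in control livers, and was not called (-0.47, adjusted p = 0.092). The brightest, 1449434_at, read 13.86, 13.73, 13.83 and 13.80 in ethanol livers, against 13.89, 13.96, 13.89 and 13.88 in control livers and was not called (-0.10, adjusted p = 0.15). The groups did not overlap for any of the 4, and the size of the difference was smaller the brighter the probe set.

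**Figure D4:**
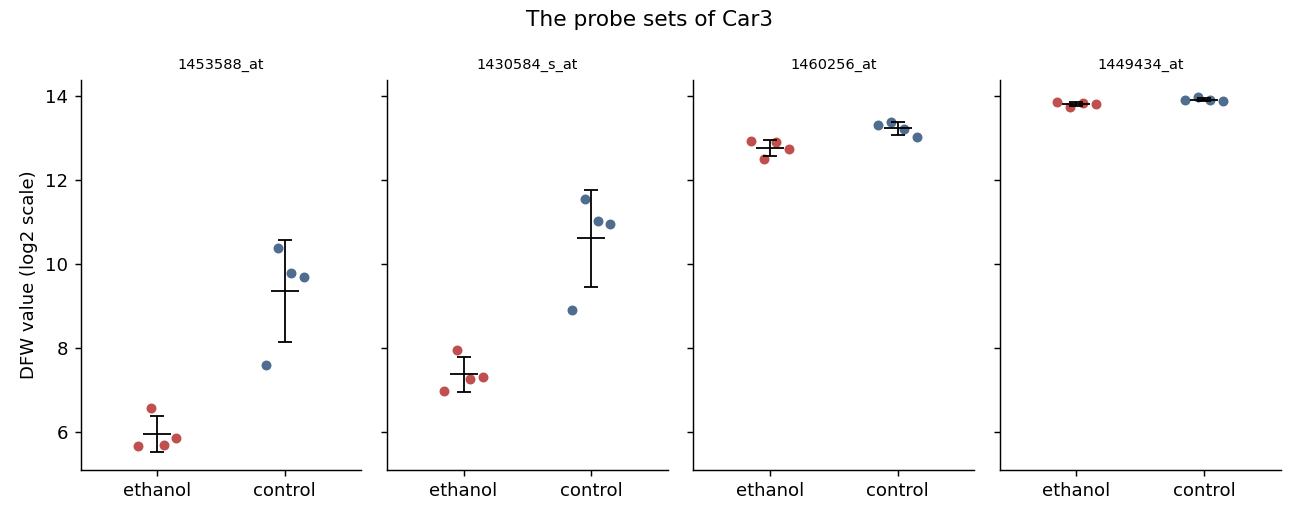
DFW values (log2 scale) of the 4 probe sets of Car3, from the dimmest (left) to the brightest, on ethanol arrays (left in each panel) and control arrays (right), with mean and SD (n = 4 each). The dimmest fell by 3.41 and the brightest differs by -0.10.

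The same genes were set side by side with CAR-deficient mice, also labelled C3H/HeN and female, 3 on the ethanol diet and 3 on the control diet, whose arrays were summarised apart. Values of the genotypes are therefore not compared, the difference between genotypes was not tested here, and each difference has its own fit. In CAR-deficient livers 38 genes (0.209%) were higher and 41 (0.225%) lower. The 15 genes with the largest increases in wild-type livers all differed in the same direction in CAR-deficient livers, with a median of 1.50 beside 1.20 in wild-type livers, and 3 were called. The 15 with the largest decreases did so as well, with a median of -1.53 beside -1.33, and 2 were called. Cyp2b10 read 10.15, 7.20 and 8.09 in CAR-deficient ethanol livers, against 6.26, 6.05 and 6.22 in CAR-deficient control livers, a difference that was not called (2.30, adjusted p = 0.19) beside 4.05 in wild-type livers. Every CAR-deficient ethanol array was above the control arrays for Cyp2b10. Cyp2c29 read 12.87, 12.78 and 13.02 in CAR-deficient ethanol livers, against 10.24, 9.68 and 10.14 in CAR-deficient control livers (2.88, adjusted p = 0.0028) beside 1.11 in wild-type livers. Gsta2 differed by 1.50, adjusted p = 0.13 in CAR-deficient livers and by 2.42 in wild-type livers.

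The male-biased Hsd3b5 and Slco1a1 were lower in CAR-deficient ethanol livers as well. Hsd3b5 read 6.77, 6.51 and 6.54 in CAR-deficient ethanol livers, against 12.14, 12.40 and 12.12 in CAR-deficient control livers (-5.61, adjusted p = 9.6e-07), and Slco1a1 differed by -5.31, adjusted p = 0.029 in CAR-deficient livers and by -0.74 in wild-type livers. The heat shock and Hsp90 genes named above as higher in wild-type livers were not called in CAR-deficient livers. Hspb1 differed there by 0.51, adjusted p = 0.86, and Hspb8 by 0.25, adjusted p = 0.58. Hsph1 differed by -0.59, adjusted p = 0.75, Hsp90aa1 by -0.37, adjusted p = 0.82 and Stip1 by -0.10, adjusted p = 0.936. Also below zero were Hspa8 (-0.11), Dnajb2 (-0.28), Chordc1 (-0.12), Ahsa1 (-0.07) and Fkbp4 (-0.28). Few genes of any kind were called in these livers (0.209% higher and 0.225% lower), so a missing call shows little. Cyp2c50 (-0.56, adjusted p = 0.75) and Cyp2c54 (-0.89, adjusted p = 0.64) differed in the opposite direction without a call, and Akr1c19 (0.01, adjusted p = 0.993) and Wwox (-0.08, adjusted p = 0.954) were near zero.

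**Figure D5:**
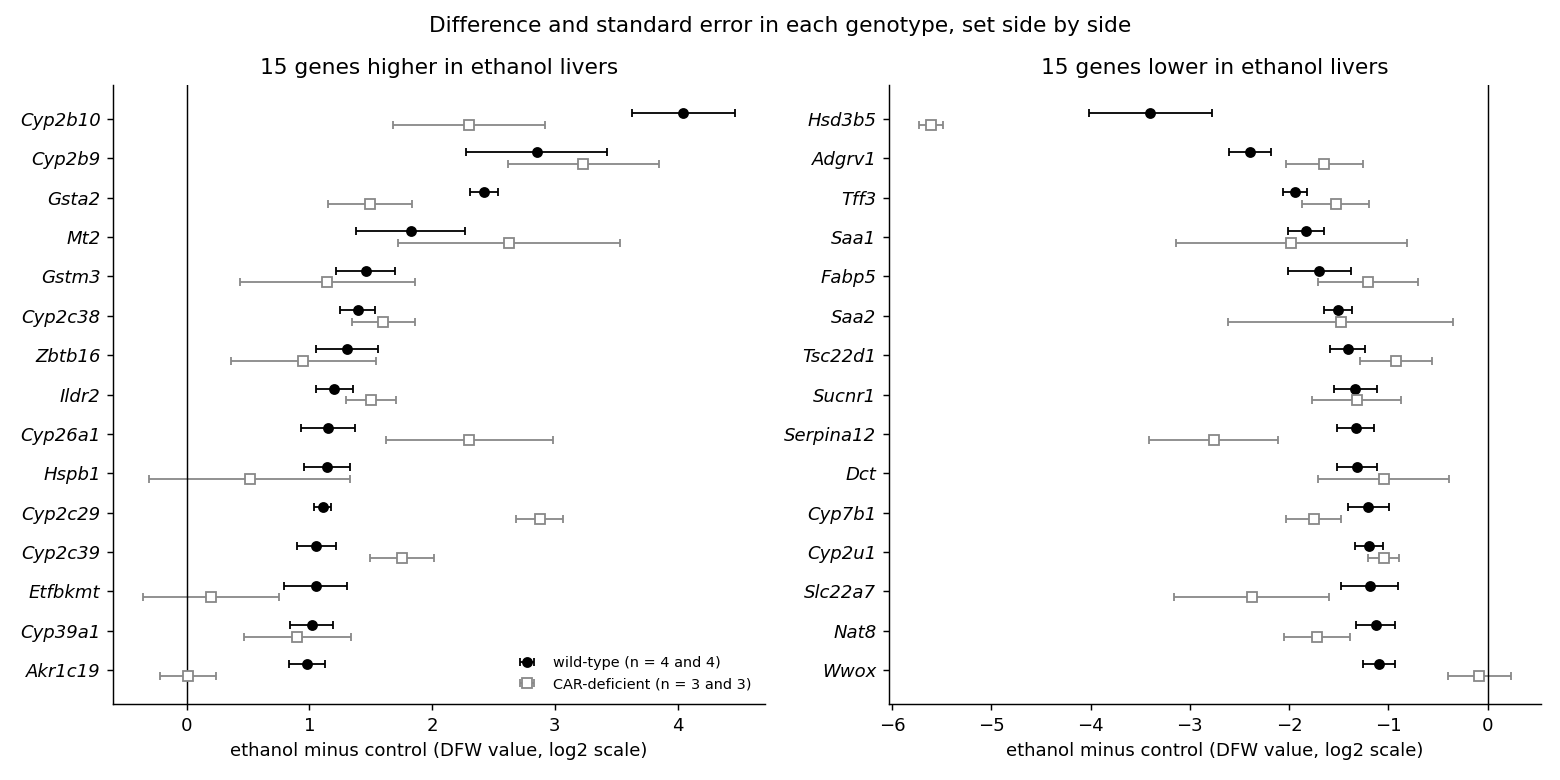
Difference of DFW values (ethanol minus control, log2 scale) with its standard error for the 15 genes with the largest called increases (left panel) and decreases (right panel) in wild-type livers whose groups do not overlap (black circles, n = 4 and 4), with the CAR-deficient livers side by side (open squares, n = 3 and 3). All 30 genes lie on the same side of zero in both genotypes; Akr1c19 and Wwox are near zero in CAR-deficient livers.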

How the data were processed

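Liver RNA was hybridised to Affymetrix whole-genome mouse arrays. The authors deposited log2 values summarised by Distribution Free Weighting (DFW) in R 2.7 or 2.12, the 2 genotypes apart. Background correction and normalization steps before it were kept as deposited. Values were fitted in limma 3.58.1 (R 4.3.3) with all 16 wild-type arrays and 1 mean per diet, and p-values were adjusted by Benjamini-Hochberg over 45037 probe sets; 64 control probe sets were set aside. CAR-deficient arrays had a fit of their own. Of the probe sets, 34945 named 1 gene, 932 several and 9160 none. Samples took their groups from their titles. Named genes are the 15 of largest difference in each direction among called genes whose groups do not overlap, members of 73 gene lists (1382 genes named, 1250 measured), genes the study names, and probe sets that part from their gene's brightest. Members and lists were chosen with earlier results of these data known. Each array was taken as 1 mouse, and the number of arrays limits the precision. Alternatives were another test, moderation, normalization, filters, fewer arrays in the fit, a replicate block and leaving out each array. Promoters came from a RefSeq table (GRCm38.p6). Figures used matplotlib 3.10.9.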

Additional observations from a re-analysis of the deposited data

Results flagged for a closer look

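Of 338 groups of 4 arrays (169 named genes that are not compressed, in both diets), 21 held an array far from the other 3 by Dixon's criterion, beside about 1 in 20 by chance. Control replicate 1 was the far array in 9 of them and ethanol replicate 5 in 5. Control replicate 1 was low for Blvrb (9.85, next value 9.98), Hmox1 (7.27, next 7.41), Nfe2l2 (9.89, next 10.19), Hspb8 (8.94, next 9.06) and Pltp (9.44, next 9.80). It was high for Cct5 (10.51, next 10.39), Cish (9.63, next 6.74), Lpl (10.33, next 10.20) and Onecut1 (10.31, next 7.23). For Cish and Onecut1 that array stood about 3 units above the other controls. Control replicate 2 was low for Hyou1 (8.76, next 8.96) and Sec61a1 (10.08, next 10.14) and high for the brightest probe set of Car3 (13.96, next 13.89). Control replicate 3 was high for Slc39a4 (8.48, next 8.43).

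Ethanol replicate 5 was low for Ugt3a1 (7.90, next value 8.64) and Aldh2 (12.66, next 12.71). It was high for Cps1 (13.56, next 13.34), Cyp39a1 (9.82, next 9.52) and Wwox (7.38, next 6.83). Ethanol replicate 1 was low for Mt2 (8.03, next 9.68), ethanol replicate 3 was high for Ahsa1 (9.98, next 9.72) and ethanol replicate 4 was high for C8a (12.09, next 11.89).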

How the results depend on the processing

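All 8 fits that left out 1 array kept the call for 108 of the 142 called genes named here. Some named genes that were not called gained the call in some of the 11 other alternatives, which include rank products at 0.05 and at 0.025. Meg3 did so in 6, Pdk4, Hyou1, Mt1, Acaca and Fads2 in 5 each, and Scd1, Cyp2b13 and Nr0b2 in 4 each. Leaving out 1 array gave 473 to 920 probe sets higher and 821 to 1292 lower (991 and 1510 with all arrays), and 77 to 118 and 58 to 85 list members in place of 117 and 89. The 8 arrays alone gave 235 and 332 probe sets and 44 and 26 members. Rank products, a test the study ran on values of another summary, gave 3985 and 4453 probe sets and 454 and 368 members at 0.05. At 0.025 they gave 3394 and 4068 probe sets and 432 and 350 members. Their p-values here took the 16 pairs of ethanol and control arrays as independent, though each array enters several pairs. These counts are therefore likely too high, and they are not the study's counts. Quantile normalization gave 11768 and 3466 probe sets and 395 members higher, kept 746 of the 991 higher and 886 of the 1510 lower calls, and turned 345, all compressed, to the opposite call. Centring on array medians gave 295 and 573 probe sets. A difference of at least 0.1 left 386 and 743 probe sets, since fewer were counted. Uncompressed probe sets tested alone gave 622 higher and 1147 lower, beside 403 and 780 of them called in the main fit. Timd4 turned positive with quantile normalization (0.0042) and with centring (0.00016). The cause of the other changes was not tested. Centring ended 18 calls of named genes, among them Gstt3, Slc22a7, Hsph1, Hsp90aa1, Mt2, Arg1 and Clec4f, and quantile normalization ended 1, Acss1. Trend and robust moderation of the variances ended 10, Cyp3a11, Adh1, Arg1, Hgd, Agxt, Cyp27a1, Ghr, Hc, Slc27a2 and Gbp6 (846 and 1347 probe sets), and limma without moderation ended 3, Arg1, Cd5l and Gbp6 (846 and 1328). No scaling moved the median of all genes by over 0.1, but 14338 of 18193 genes are compressed, so this median could hardly move.

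The titles give numbers 1, 3 and 4 in both diets. Deviations from the diet means correlated at 0.32, 0.33 and -0.08 for these numbers, so the numbers were not taken to pair the mice. With the replicate number as a block, 572 probe sets were higher, 942 lower and 75 list members higher, and 47 of the 142 calls were lost. Compressed probe sets (85.3%) limit what a small difference shows.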

Other observations

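Other genes and groups also differed, and those named here were chosen after their values were seen. Mpeg1, which encodes the pore-forming protein perforin-2 of macrophages, read 8.69, 8.57, 8.54 and 8.57 in ethanol livers, against 9.19, 9.19, 9.23 and 9.40 in control livers and fell by 0.66 (standard error 0.08, adjusted p = 0.0011). H2-Aa, a class II antigen presentation gene, fell by 0.45, adjusted p = 0.029, a call lost in 6 of the 8 fits without 1 array (adjusted p up to 0.078). Of 28 interferon-stimulated genes, 13 compressed, 0 were higher and 2 lower (Iigp1, -0.34, adjusted p = 0.024, and Gbp6, -0.53, adjusted p = 0.044). In sign, 23 differed in the negative direction, beside 7969 of 18193 genes, most of them compressed. Among genes that are not compressed the median was -0.13 for this list and -0.038 for all genes. The calls of Iigp1 and Gbp6 were lost in 3 and 8 of the 8 fits (adjusted p up to 0.057 and 0.11), that of Gbp6 also with trend and robust moderation (adjusted p = 0.0501). The autophagy kinases Ulk1 (-0.57, adjusted p = 0.0042) and Ulk2 (-0.31, adjusted p = 0.0042) were lower, and every ethanol array lay below every control array for both. Of 23 autophagy genes 1 was higher and 3 lower. Cirbp, a cold-inducible RNA-binding protein, read 7.43, 7.31, 7.38 and 7.35 in ethanol livers, against 7.95, 8.11, 7.90 and 7.85 in control livers and fell by 0.58 (standard error 0.09, adjusted p = 0.0043). H2-Aa, Iigp1, Gbp6 and Ulk2 did not keep the call with only the 8 arrays in the fit (adjusted p between 0.061 and 0.12).

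Slc2a1, the glucose transporter GLUT1, which is low in healthy hepatocytes, read 7.99, 8.14, 7.48 and 8.08 in ethanol livers, against 7.23, 6.81, 6.97 and 6.99 in control livers and rose by 0.93 (standard error 0.15, adjusted p = 0.0066). Irf2bp2, a corepressor, read 9.08, 9.28, 8.68 and 9.43 in ethanol livers, against 8.32, 8.22, 8.31 and 8.27 in control livers and rose by 0.84 (standard error 0.16, adjusted p = 0.012). Krt8, a keratin of hepatocytes, rose by 0.64, adjusted p = 0.02 and its partner Krt18 by 0.42, adjusted p = 0.027, and these calls were lost in 2 and 5 of the 8 fits (adjusted p up to 0.0522 and 0.068). Meg3, an imprinted noncoding RNA, read 7.89, 8.43, 8.13 and 8.68 in ethanol livers, against 7.06, 7.00, 7.01 and 7.23 in control livers and missed the threshold (1.21, adjusted p = 0.0516), although every ethanol array was above every control array. Among 24 genes of the tricarboxylic acid cycle, the mitochondrial Idh2 rose by 0.44, adjusted p = 0.001 and the citrate synthase Cs fell by 0.34, adjusted p = 0.022, the second a call lost in 3 of the 8 fits (adjusted p up to 0.063). Of 34 nuclear-encoded respiratory chain subunits, 21 compressed, 30 differed in the negative direction, beside 7969 of 18193 genes. Of all genes 14338 are compressed, so that such signs show little. Among genes that are not compressed the median difference was -0.066 for the subunits and -0.038 for all genes. Of these subunits 3 were called lower and 0 higher. Of 20 immediate early genes, 22 genes of folate and glycine metabolism and 16 of NAD synthesis, 0 were called in limma. An unadjusted p under 0.05 was found for 4, 2 and 4 of them, beside 4526 of all 18193 genes. Slc2a1, Irf2bp2, Krt8, Krt18 and Cs missed the threshold when the other wild-type diets were left out of the fit (adjusted p between 0.062 and 0.11).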
